A study of Homo sapiens with 8 samples.

Results

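The genes described are 10 genes of antigen presentation by major histocompatibility complex (MHC) class II molecules: HLA-DRA, HLA-DRB1, HLA-DPA1, HLA-DPB1, HLA-DQA1, HLA-DMA, HLA-DMB, HLA-DOA, CD74 and CIITA. They are 10 of the 16557 genes with a probe on the arrays. Each probe was named through its RefSeq accession, which gave these genes 18 of the 41000 probes. The probes were taken whatever their values, but the genes were chosen with earlier results of these data known. HLA-DOA has 4 probes, HLA-DPA1, HLA-DPB1, HLA-DQA1, HLA-DMA and CIITA have 2 each, and the other genes have 1. Probes of the same gene are numbered here from the brightest to the dimmest, and the HLA-DRB1 probe is printed as 10 spots on each array. The data are from an Ago2-RIP-Chip experiment on ST486, a cell line established from Burkitt lymphoma, a malignancy of B cells. The cells had been transduced with the retroviral vector MXW-PGK-IRES-GFP, either empty (EV-ST486) or carrying miR-155 (miR-155-ST486), and GFP+ cells had been sorted in both cases, so that the control cells carry the vector and GFP too. Total RNA of the lysate (the T fraction) and RNA recovered with anti-Ago2 antibody (the IP fraction) each received Cy3 in 1 labelling and Cy5 in another. On every array the IP RNA of a vector was set against its total RNA, with either dye assignment, which makes 4 arrays with 8 channels. Each of the 4 conditions is 1 RNA sample, the labellings are technical repeats, and the arrays of EV-ST486 and of miR-155-ST486 are on separate slides, so that slide and vector cannot be told apart. No test was possible, no p-value is given, and the values of the dye orientations stand beside most ratios of the class II probes as the measure of error.

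MHC class II molecules carry peptides from endosomes to the surface of B cells, dendritic cells and macrophages, where CD4+ T cells read them. Each is a pair of an alpha and a beta chain, assembled with the invariant chain CD74, which fills the groove until proteases cut it down to a short stub. HLA-DM takes the stub out and helps to load peptides, HLA-DO holds HLA-DM back in B cells, and CIITA is the transactivator without which the class II genes and CD74 are hardly transcribed. miR-155 is a miRNA of activated B cells, guided to its targets by the seed near its 5′ end, and Ago2 is the protein that holds the miRNA on its target. The IP/T ratio, the signal in the IP fraction over that in the T fraction, is therefore high for transcripts held by Ago2 more than others, and a transcript enriched at least 2-fold counted as part of the miRNA targetome in the study's methods.

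The sequence that set the cells apart was miR-155. Its mature form in RefSeq (GRCh38.p14, chr21:25573983-25574006, plus strand) is shown for its seed, bases 2 to 8, which is in capitals.
hsa-miR-155-5p: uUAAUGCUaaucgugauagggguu

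Class II genes share a promoter built around the X and Y boxes, the latter bound by the factor NF-Y. RefSeq promoters of 8 of the 10 genes were matched in the table used here. The letters GATTGG, a core of the Y box that contains the CCAAT box read on the other strand, were searched on both strands in the 250 bases before each gene start. They were found for HLA-DRB1, HLA-DPB1, HLA-DMA, HLA-DMB and HLA-DOA, 5 of the 8 genes, and in 14.1% of 35116 promoters. The longer CTGATTGG, which holds the shorter letters, was found for HLA-DRB1 and HLA-DMA and in 3.81% of promoters. The 5-letter CCAAT alone, found in 32.0% of promoters, was there for HLA-DQA1 and CD74 as well, and neither of the 2 promoters listed for HLA-DPA1 held it. The stretches of 30 bases around GATTGG, or CCAATC where it lies on the other strand, are printed below. A relation between these letters and the measured values was not tested. The matching letters are in capitals, the sequences run 5′ to 3′ on the strand of the gene, and the build is GRCh38.p14. They lie at chr6:32589878-32589907 (minus strand), chr6:33075903-33075932 (plus strand), chr6:32953160-32953189, chr6:32941033-32941062 and chr6:33009642-33009671 (all minus strand), in the order printed. A match is a description of letters and no measured binding.
HLA-DRB1: aactcagatgctGATTGGttctccaacacg
HLA-DPB1: ctcagactctgtCCAATCccagggtcacag
HLA-DMA: ctacgcttctctGATTGGtttagacaaaat
HLA-DMB: ctgcctacctagCCAATCtgtccctgtttg
HLA-DOA: gagaatttctgtGATTGGctgaagacagca

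Class II transcripts were plainly measurable in ST486 cells. A spot counted as detected when flagged as positive, significant and well above background. Every channel detected the same 14 of the 18 probes, and these 14 passed both filters of the study's methods, detection in at least 4 channels and a difference under 2-fold between the labellings of each sample. These 14 kept probes cover 9 of the 10 genes, and 15529 of the 41000 probes were kept in all. HLA-DQA1 has no kept probe. Its probe 1 was detected in the 4 Cy3 channels and in no Cy5 channel, with normalised signals between 11.2 and 62.8, and its probe 2 was detected in no channel. The probe of HLA-DQB1, the gene of its partner chain, was detected in all 8 channels, with signals of 2356 in EV total RNA and 2601 in miR-155 total RNA. HLA-DOA, which encodes the alpha chain of HLA-DO, is split among its probes. Probes 1 and 2 of HLA-DOA were detected in all 8 channels, probe 3 in 2 channels and probe 4 in 1 channel. HLA-DOA probe 3 was not well above background in either IP sample, and its EV total RNA was detected in 1 of 2 labellings. The measured means of its EV total and EV IP RNA were 69.7 and 68.0 after normexp, loess and Aquantile. No fold could be bounded for HLA-DOA probe 3 or HLA-DOA probe 4.

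The labelled cell type was checked against marker lists. Of 9 B cell marker genes with a probe, 7 had a kept probe, among them CD79A and CD79B, the signalling chains of the B cell receptor, and MS4A1, which encodes CD20. Of 7 T cell marker genes, only CD4 had a kept probe. The CD8A probe was detected in all 8 channels, with signals from 147 to 195, and the CD247 probe in 4, while the other 5 T cell probes, those of CD2 and of CD3D, CD3E and CD3G, were detected in no channel. Of the genes marking monocytes, macrophages or dendritic cells, the other cells rich in class II, none of 10 had a kept probe, and 8 of their 11 probes were detected in no channel. The exceptions were FCER1G, detected in all 8 channels with signals from 263 to 410, CD14 in 5 channels and S100A8 in 1 channel. Among the B cell markers without a kept probe, CD22 was detected in 7 channels and PAX5 in none. Of 6 plasma cell marker genes with a probe, 5 had a kept probe: SDC1, XBP1, JCHAIN, TNFRSF17 and IRF4. The JCHAIN probe had a signal of 45447 in EV total RNA, and the PRDM1 probe was detected in 2 channels. These lists therefore do not set B cells apart from plasma cells. The number of detected probes ranged from 14094 to 22161 over the channels, and no spot of a transcript probe was saturated.

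**Figure D1:**
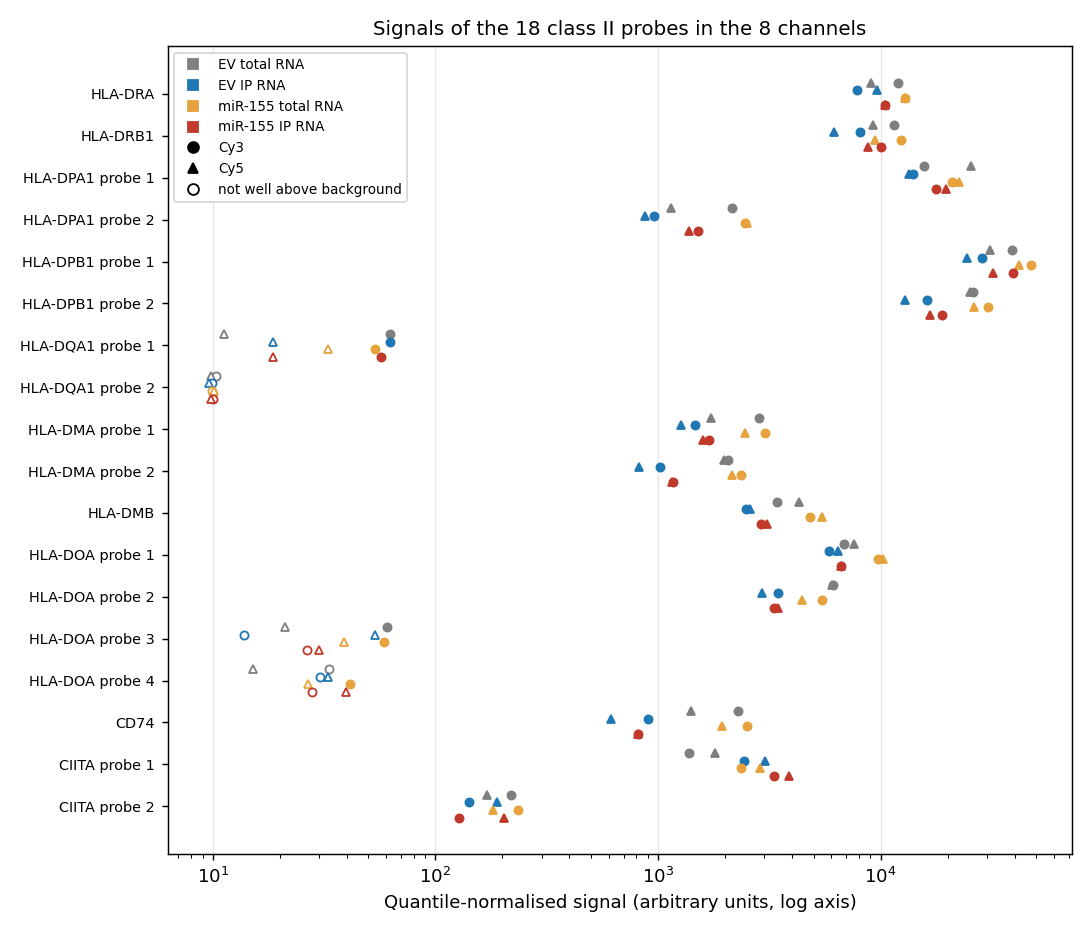
Quantile-normalised signal (arbitrary units, log axis) of the 18 class II probes in the 8 channels, with colours for the RNA samples, circles for Cy3, triangles for Cy5 and open symbols where a probe was not well above background. All 14 kept probes lie above 100, CIITA probe 1 is the row in which the IP samples lie to the right of the total samples of the same vector, and the dim HLA-DQA1 and HLA-DOA probes lie below 100.

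Signals of different probes depend on the probe as well as on the transcript and are not compared with each other here. The classical chains that form the peptide groove come first. HLA-DRA, the alpha chain shared by all DR molecules, had signals of 10404 in EV total RNA, 8673 in EV IP RNA, 12915 in miR-155 total RNA and 10446 in miR-155 IP RNA. The IP signal was below the total signal in both vectors, with IP/T of 0.834 in EV (0.803 and 0.865 in the dye orientations) and 0.809 in miR-155 (0.812 and 0.805). HLA-DRB1, a beta chain that pairs with it, had signals of 10291 and 7083 in EV total and IP RNA and of 10818 and 9359 in miR-155 total and IP RNA. Its IP/T was 0.688 in EV (0.541 and 0.876) and 0.865 in miR-155 (0.707 and 1.06), so that the miR-155 orientations fell on both sides of 1. The 10 spots of the HLA-DRB1 probe varied within a channel by a coefficient of variation of 2.32% to 16.9%, the widest being EV total RNA in Cy5.

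HLA-DPA1 and HLA-DPB1 encode the chains of the DP molecule. HLA-DPA1 probe 1 had signals of 20051 and 13669 in EV total and IP RNA and of 21745 and 18696 in miR-155 total and IP RNA, with IP/T of 0.682 in EV (0.853 and 0.545) and 0.860 in miR-155 (0.936 and 0.790). HLA-DPA1 probe 2 had signals of 1569, 913, 2487 and 1448 in EV total, EV IP, miR-155 total and miR-155 IP RNA, with IP/T of 0.582 in EV (0.407 and 0.832) and 0.582 in miR-155 (0.561 and 0.604). Both probes were below 1 in every orientation, but in EV the orientations of probe 2 lay further apart than the vectors did. HLA-DPB1 probe 1 had signals of 34661, 26423, 44746 and 35537 in the same order and IP/T of 0.762 in EV (0.630 and 0.923) and 0.794 in miR-155 (0.673 and 0.937). HLA-DPB1 probe 2 had signals of 25722, 14439, 28206 and 17798 and IP/T of 0.561 in EV (0.493 and 0.639) and 0.631 in miR-155 (0.551 and 0.723). All 4 HLA-DP probes were thus lower in the IP than in the T fraction, by differing amounts.

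The chains that edit the peptide load follow. HLA-DMA, the alpha chain of HLA-DM, had on probe 1 signals of 2215, 1364, 2728 and 1642 in EV total, EV IP, miR-155 total and miR-155 IP RNA, with IP/T of 0.616 in EV (0.449 and 0.845) and 0.602 in miR-155 (0.522 and 0.693). HLA-DMA probe 2 had signals of 2020, 920, 2250 and 1162 and IP/T of 0.455 in EV (0.400 and 0.518) and 0.516 in miR-155 (0.489 and 0.546). Its EV ratio was at or below 0.5, a 2-fold depletion, in the mean and in 1 of the 2 orientations. HLA-DMB, the beta chain of HLA-DM, had signals of 3846, 2528, 5112 and 2997 and IP/T of 0.657 in EV (0.753 and 0.574) and 0.586 in miR-155 (0.644 and 0.533). HLA-DOA probe 1 had signals of 7225, 6139, 9969 and 6647, with IP/T of 0.850 in EV (0.935 and 0.772) and 0.667 in miR-155 (0.686 and 0.648), and HLA-DOA probe 2 had signals of 6065, 3191, 4916 and 3391, with IP/T of 0.526 in EV (0.480 and 0.577) and 0.690 in miR-155 (0.639 and 0.745). The HLA-DOA probes disagree on the difference between the vectors: IP/T was lower in miR-155 than in EV on probe 1 and higher on probe 2, in both orientations each.

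CD74, the invariant chain, had the lowest IP/T of the kept class II probes in both vectors. Its signals were 1802 in EV total RNA, 744 in EV IP RNA, 2201 in miR-155 total RNA and 815 in miR-155 IP RNA. IP/T was 0.413 in EV (0.267 and 0.638) and 0.370 in miR-155 (0.325 and 0.422), which put CD74 at percentiles 4.39 and 2.42 of all kept probes. The EV orientations lay far apart, and under normexp background correction, with either normalization, the CD74 probe did not pass the filter on dye differences.

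CIITA stood apart from the genes it controls, on 1 of its 2 probes. CIITA probe 1 had signals of 1579 in EV total RNA, 2716 in EV IP RNA, 2595 in miR-155 total RNA and 3577 in miR-155 IP RNA. IP/T was 1.72 in EV (2.20 and 1.34) and 1.38 in miR-155 (1.64 and 1.16), above 1 in all 4 arrays and the only kept class II probe of which this holds. CIITA probe 2 was dimmer, with signals of 193, 163, 207 and 161, and had IP/T of 0.844 in EV (0.865 and 0.824) and 0.776 in miR-155 (0.859 and 0.701). The probes of CIITA therefore give opposite directions, and which part of the transcript each reads was not examined here.

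**Figure D2:**
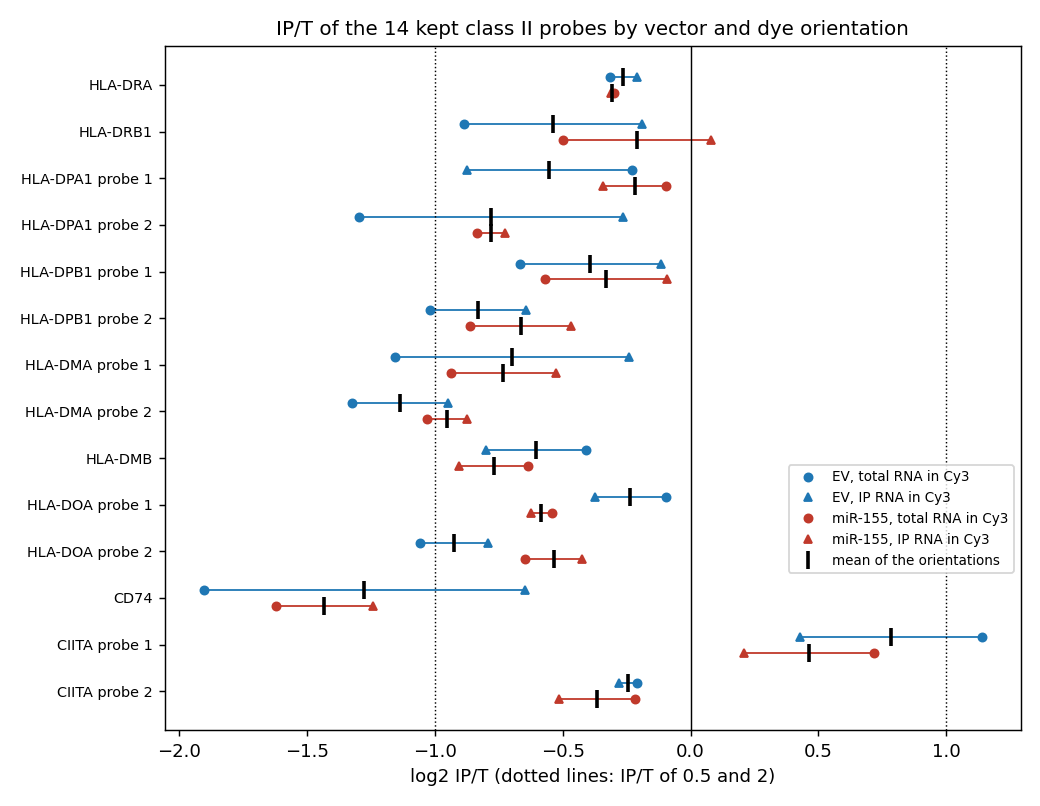
log2 IP/T of the 14 kept class II probes in EV (blue) and miR-155 (red), with circles for the array with total RNA in Cy3, triangles for the array with IP RNA in Cy3, a line joining them and a black tick at their mean. CIITA probe 1 alone lies above 0 in all 4 arrays, CD74 lies furthest to the left, and many EV lines are longer than the gap between the vectors.

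Across the class II genes, IP/T was mostly below 1 but seldom far below it. In EV, 13 of the 14 kept probes had an IP/T below 1 in both orientations, against 44.7% of all kept probes. In miR-155 it was 12 of the 14, against 50.6% of all kept probes, the exceptions being CIITA probe 1 and HLA-DRB1. The median log2 IP/T of the 14 probes was -0.58 in EV (-0.78 and -0.33 in the orientations) and -0.56 in miR-155 (-0.60 and -0.49), while the medians of all kept probes were -0.15 and -0.18. Relative to the median of all kept probes the class II medians were -0.43 in EV (-0.65 and -0.19 in the orientations) and -0.38 in miR-155 (-0.44 and -0.31). With 1 class II probe per gene, set against the same kept probes, they were -0.39 in EV and only -0.15 in miR-155.

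Few class II probes passed the 2-fold threshold. None of the 14 probes had an IP/T of at least 2, in EV, where 12.1% of kept probes did, or in miR-155, where 12.2% did. An IP/T of at most 0.5 was found for CD74 and HLA-DMA probe 2 in EV, 2 of 14 against 10.03% of kept probes, and for CD74 in miR-155, 1 of 14 against 9.83%. With total RNA in Cy3 alone there were 6 such probes in EV, and with IP RNA in Cy3 alone there were 0. The 10.03% is for the mean of the orientations. No share of all kept probes is given for a single orientation, so these 2 counts show only the spread between dyes. After normexp background correction with quantile normalization, CD74 and HLA-DPB1 probe 1 were not kept, HLA-DQA1 probe 1 was, and 7 of 13 kept class II probes in EV and 10 of 13 in miR-155 were below 1 in both orientations, against 35.0% and 47.0% of all probes kept in that setting.

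**Figure D3:**
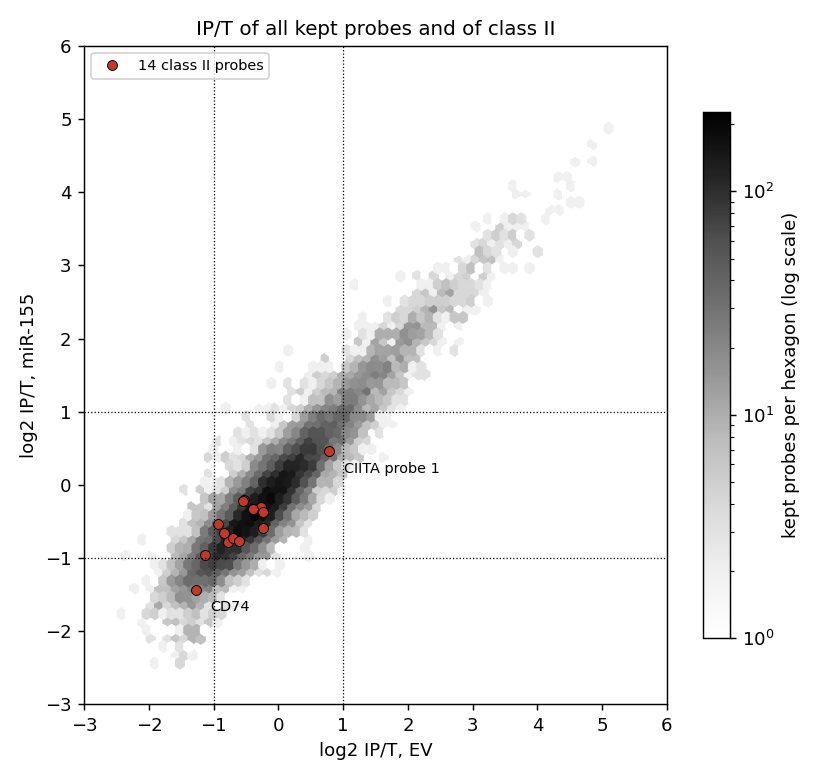
log2 IP/T in EV (horizontal) against miR-155 (vertical) for the 15529 kept probes, shown as grey hexagons shaded by count on a log scale, with the 14 class II probes in red and dotted lines at IP/T of 0.5 and 2. The class II probes lie along the diagonal in the lower left of the cloud, except CIITA probe 1, and none lies past IP/T of 2.

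The next comparison was between the vectors in total RNA, which asks how transcript levels differ in cells with ectopic miR-155. Fewer transcripts per cell and fewer cells holding them cannot be told apart in such bulk RNA. Class II signals were somewhat higher in miR-155-ST486 than in EV-ST486 cells: 12 of the 14 kept probes lay above a miR-155/EV ratio of 1 whichever dye was read, against 37.3% of all kept probes. The median log2 ratio was 0.29 (0.20 and 0.38 in the orientations), a ratio of 1.23, and the median of all kept probes was 0.02. No class II probe reached a 2-fold difference in either direction, which 1.06% of kept probes did.

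CIITA probe 1 had the highest ratio in total RNA, 1.64 (1.71 and 1.58), at percentile 97.2 of all kept probes, and CIITA probe 2 had 1.07 (1.09 and 1.06). HLA-DPA1 probe 2 came next with 1.59, but its orientations were 1.15 and 2.19, and HLA-DPA1 probe 1 had 1.08, with orientations of 1.33 and 0.883 on both sides of 1. Next in order were HLA-DOA on probe 1, at 1.38 (1.41 and 1.35), HLA-DMB at 1.33 (1.40 and 1.26) and HLA-DPB1 on probe 1 at 1.29 (1.23 and 1.36). HLA-DRA at 1.24 (1.07 and 1.43), HLA-DMA probe 1 at 1.23 (1.07 and 1.41) and CD74 at 1.22 (1.09 and 1.37) were higher in both orientations by amounts that differed between them. HLA-DMA probe 2 at 1.11 (1.14 and 1.09), HLA-DPB1 probe 2 at 1.10 (1.16 and 1.04) and HLA-DRB1 at 1.05 (1.08 and 1.02) lay only slightly above 1, as CIITA probe 2 did. The exception was HLA-DOA probe 2, at 0.811 (0.890 and 0.738), below 1 where probe 1 of the same gene was above it. Under normexp with either normalization, HLA-DMA probe 2, HLA-DPB1 probe 2 and CIITA probe 2 fell below 1 in the mean, and 8 of 13 (quantile) and 7 of 12 (loess and Aquantile) kept class II probes were above 1 in both orientations, against 27.1% and 26.5% of all probes kept in those settings. CIITA probe 1 no longer had the highest ratio there, at 1.25 (quantile) and 1.26 (loess and Aquantile), while HLA-DMB had 1.69 and 1.70.

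In IP RNA, 11 of the 14 class II probes had a miR-155/EV ratio above 1 in both orientations, against 34.4% of all kept probes, with a median log2 ratio of 0.29 and 0.00 for all kept probes. No class II probe differed by 2-fold, against 2.33% of kept probes. The ratio of IP/T compares these differences within the same samples. Its median log2 value, miR-155 over EV, was -0.02 (0.15 and -0.10), the same as the -0.02 of all kept probes. Single values ranged from -0.35 on HLA-DOA probe 1 to 0.39 on HLA-DOA probe 2. No class II probe passed 2-fold in the ratio of IP/T, against 1.63% of kept probes, and none was above 1 in both orientations of one vector and below 1 in both of the other.

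Other class II genes, not among the 10, were mostly on the same side in total RNA. Of 9 genes listed, 8 had a probe, and 7 probes of 6 genes were kept. The log2 miR-155/EV ratio in total RNA was 0.52 for HLA-DQA2, 0.48 for HLA-DRB4, 0.30 and 0.04 for the HLA-DRB5 probes, 0.14 for HLA-DQB1, 0.13 for HLA-DRB3 and -0.25 for HLA-DPB2, a pseudogene. Of these 7 probes, 5 were above 1 in both orientations, against 37.3% of all kept probes. All 7 had an IP/T below 1 in both orientations in EV, against 44.7% of all kept probes, with a median log2 value of -0.70. HLA-DPB2 and HLA-DRB3 were at most 0.5 there, at 0.448 and 0.452, against 10.03% of all kept probes. In miR-155, 6 of the 7 were below 1 in both orientations, against 50.6% of all kept probes, with a median log2 value of -0.40. The median log2 ratio of IP/T, miR-155 over EV, was 0.36 (0.31 and 0.06 in the orientations), against -0.02 for all kept probes. The DRB genes are near copies of each other, and the signals of their probes and of the HLA-DRB1 probe cannot be assigned to single genes here. A further HLA-DQA2 probe was detected in 2 channels and was not kept. Whether the kept HLA-DQA2 probe reads that gene alone was not examined, so its signal is not assigned to a single gene either.

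MHC class I molecules, which present peptides of the cell interior to CD8+ T cells, differ from class II in their heavy chain, and these chains were compared after their values were seen. In total RNA the 8 kept probes of HLA-B, HLA-C, HLA-E, HLA-F and HLA-G had a median log2 miR-155/EV ratio of -0.17 (-0.12 and -0.26), from -0.46 on an HLA-E probe to 0.05 on the HLA-C probe. Of them, 7 were below 1 in both orientations, against 34.5% of all kept probes, and the class II genes had 1 such probe of 14. Without normalization between the channels all kept probes shift by 0.44 in miR-155/EV in total RNA, and relative to that shift the class II median was 0.32 and the class I heavy chain median was -0.26. Relative to all kept probes the heavy chain median was otherwise -0.19, and it shrank to -0.06 under normexp with quantile normalization and to -0.07 under normexp with loess and Aquantile. In these settings 3 of 7 and 3 of 6 kept heavy chain probes were below 1 in both orientations, against 31.3% and 35.4% of all probes kept there. In IP/T these heavy chains lay on the same side as class II, with median log2 values of -0.51 in EV and -0.48 in miR-155, and B2M, the light chain of class I, lay on the other side with a log2 IP/T of 0.83 in EV and 0.74 in miR-155. The kept HLA-G probe had a signal of 70526 in EV total RNA, while the other HLA-G probe was detected in no channel. Whether each heavy chain probe reads 1 gene only was not examined, so their signals are not assigned to single genes here. With 1 RNA sample per condition, the difference between class II and class I was not tested.

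**Figure D4:**
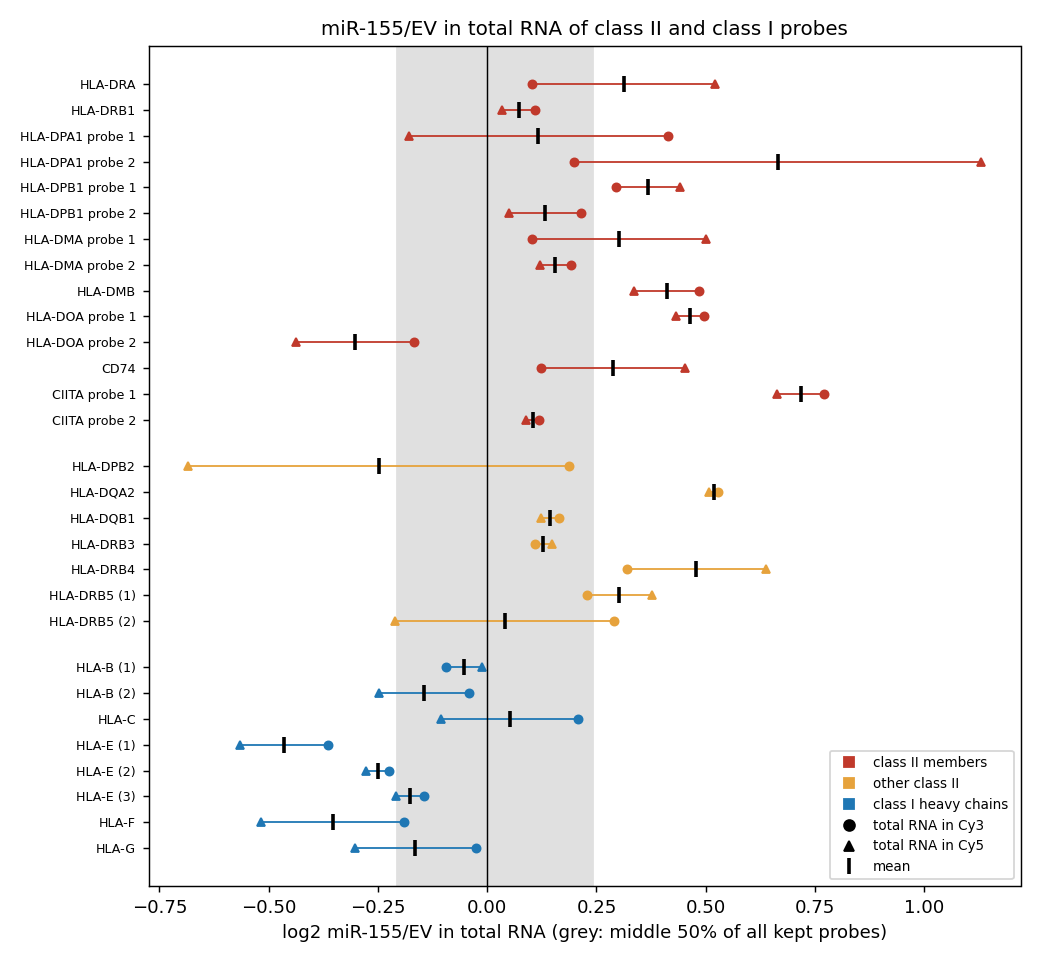
log2 miR-155/EV in total RNA for the 14 kept class II probes (red), 7 kept probes of other class II genes (orange) and 8 kept class I heavy chain probes (blue), with circles for total RNA in Cy3, triangles for total RNA in Cy5 and black ticks for the means. The grey band is the middle 50% of all kept probes, from -0.21 to 0.24. Apart from HLA-DOA probe 2 and HLA-DPB2 the class II means lie above 0, and apart from HLA-C the class I heavy chain means lie below 0.

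Among the class I presentation list, 26 probes of 18 genes were kept, and the median log2 miR-155/EV in total RNA was -0.03. No probe had an IP/T of at least 2, against 12.1% of all kept probes in EV and 12.2% in miR-155. An IP/T of at most 0.5 was found in either vector for PSME1, a proteasome activator subunit, on 1 of its probes (log2 -1.55 in EV and -1.43 in miR-155), for 1 probe of HLA-E (-1.34 and -1.16), and for PSMB9, an immunoproteasome subunit, in miR-155 (-0.55 and -1.08). Over all kept probes an IP/T that low was found for 10.03% in EV and 9.83% in miR-155.

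The factors that drive class II transcription were spread widely in IP/T. Of 20 genes listed, 14 had a kept probe, on 18 probes. Of these probes, 6 in EV and 5 in miR-155 had an IP/T of at least 2, against 12.1% and 12.2% of all kept probes. KAT2B, a histone acetyltransferase that works with CIITA, had the largest, on a probe with a signal of 31.2 in EV total RNA. On that probe the log2 values were 2.99 in EV (2.25 and 3.73) and 1.72 in miR-155 (1.83 and 1.61). They were 2.65 and 2.45 on its brighter probe. NFYC, a subunit of NF-Y, had 1.88 (1.91 and 1.85 in the orientations) in EV and 2.38 (2.48 and 2.28) in miR-155 on 1 of its probes. IRF1 and IRF2, interferon regulatory factors that act on CIITA, had 1.40 and 1.39 in EV and 1.47 and 1.54 in miR-155. BACH2, a transcriptional repressor in B cells, had 1.18 in EV (1.03 and 1.34) and 0.83 in miR-155 (0.81 and 0.85). The dimmer KAT2B probe was the only probe of this list whose IP/T differed 2-fold between the vectors. The difference was -1.27 (-0.42 and -2.12), and 1.63% of all kept probes differed as much. No gene of this list differed 2-fold between the vectors in total RNA, against 1.06% of all kept probes, and the list's median there was 0.04.

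The genes of antigen processing and vesicle traffic for class II gave 19 kept probes of 17 genes out of 26 listed. AP2M1 and AP1M1, adaptor subunits that sort CD74 with its class II partners, had log2 IP/T values of -1.82 and -1.21 in EV and -1.67 and -1.08 in miR-155. LAMP2, a lysosomal membrane protein, had 1.12 and 1.01 on 1 probe, and CD83, which keeps class II on the surface, had 0.80 in EV and 1.08 in miR-155. VPS18, a tethering factor of late endosomes, had a log2 IP/T of -0.17 in EV (-0.49 and 0.16) and 0.95 in miR-155 (0.84 and 1.07). It was the only probe of this list whose IP/T differed 2-fold between the vectors, by 1.12, against 1.63% of all kept probes.

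Costimulatory and adhesion genes, which act beside class II at the contact with a T cell, had 8 kept probes out of 12 genes listed. CD58, the ligand of CD2 on T cells, had signals of 1113, 2065, 1041 and 3975 in EV total, EV IP, miR-155 total and miR-155 IP RNA. Its log2 IP/T was 0.89 in EV (0.86 and 0.92) and 1.93 in miR-155 (2.00 and 1.87), a difference of 1.04 (1.14 and 0.95), and the orientations of the vectors did not overlap. CD80, a ligand of CD28, went the other way, from 1.64 to 0.38, a difference of -1.26 (-0.84 and -1.67), on a probe with a signal of 48.7 in EV total RNA. CD70, the ligand of CD27, had 0.93 in EV and 1.41 in miR-155.

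Many genes outside the MHC had a profile over the 8 channels like that of the class II genes. With log2 signals centred on each probe, the 5 genes outside the MHC nearest to the median class II profile were COCH, PRDX3, PPID, GRWD1 and CCNC, at root mean square distances of 0.06 to 0.07 on the log2 scale. COCH, a secreted matrix protein, had log2 IP/T values of -0.68 in EV and -0.62 in miR-155 and a log2 miR-155/EV ratio in total RNA of 0.25. The class II probes themselves lay between 0.13 and 0.66 from their own median, the furthest being CIITA probe 1 and the next CD74, and 1064 genes outside the MHC lay nearer than the median class II probe, at 0.22. Since the channels share 4 RNA samples, likeness over them is a description with few independent values.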

How the data were processed

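Total and Ago2-IP RNA of ST486 cells with either vector was measured on 4 2-colour 44k arrays from Agilent, 1 RNA sample per condition with 2 labellings. The authors read out each spot's intensity with Feature Extraction 10.5.1.1 and deposited it after background subtraction and dye normalization, with flags for detection, as the headers state. The authors also deposited log2 values of 14453 probes, quantile-normalized in GeneSpring and filtered on detection and dye differences. Both channels of an array come with a copy of the same file, from which the column of the sample's own dye was read.

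From the intensities, control spots were left out, spots of a probe were averaged, signals under 1 were set to 1, and their log2 was quantile-normalized across all 8 channels, in Python 3.11.15 with numpy 2.4.6 and pandas 2.3.3. A probe counted as detected in a channel when at least 1 of its spots was. Detection in at least 4 channels held for 19469 probes, and those whose labellings of every sample differed under 2-fold (15529) were kept, and labellings were averaged on the log2 scale. Of the deposited log2 values, 99.9% lay within 0.05 of those made here, and all 14 kept class II probes are among them. Their column medians lie between 9.89 and 9.91. Symbols were matched to 23958 probes through RefSeq tables of GRCh38.p14, whose build differs from that of the arrays. Printed coordinates are those of GRCh38.p14 in these tables, and none was taken from the arrays.

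Since each condition is a single RNA sample, nothing was tested. Array number and RNA samples limit the precision, and the difference between dye orientations covers technical error only. The median absolute difference between orientations was 0.47 in EV and 0.28 in miR-155 for the log2 IP/T of the kept class II probes, and 0.43 and 0.28 for all kept probes. For log2 miR-155/EV in total RNA it was 0.16 for the kept class II probes. Over all kept probes the correlation between orientations was lower for that ratio, 0.59, than for IP/T, 0.82 in EV and 0.91 in miR-155. The standard deviation of its difference between orientations was 0.39, against 0.36 for the ratio itself. A ratio of at least 2 or at most 0.5 counted as a call. The class II genes, the gene lists and the markers were chosen with earlier results of these data known. Named are all class II probes, at most 5 genes of each list with a 2-fold ratio, largest first, and the 5 genes nearest in profile. The other kept class II genes, B2M, the class I heavy chains as a group, HLA-DQB1 and the markers were named after their values were seen.

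Alternatives were normexp (limma 3.58.1, R 4.3.3, offset 50, on median signals with local backgrounds above 500 set to the channel median) with quantile or with loess and Aquantile normalization, no normalization, median centring, total and IP channels normalized separately, the deposited log2 values, other filters, arithmetic means, single dye orientations, outlier spots left out, 1 probe per gene and a 1.5-fold threshold. The scripts were tested on simulated data. Figures were drawn with matplotlib 3.10.9. Protein sequences and transcripts were not used here. Some genes of the lists are not reported here and were left out of the lists' counts and medians.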

Additional observations from a re-analysis of the deposited data

How the results depend on the processing

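Every median kept its sign under the alternatives run for IP/T in EV, IP/T in miR-155 and miR-155/EV in total RNA. The median log2 IP/T was -0.78 and -0.33 in EV and -0.60 and -0.49 in miR-155 in the single dye orientations. The median in EV was -0.43 under normexp with quantile normalization and -0.31 under normexp with loess and Aquantile. The median in miR-155 was -0.46 under normexp with quantile normalization, -0.30 under normexp with loess and Aquantile, -0.45 with neither filter, -0.33 with 1 probe per gene, whether the brightest or that of highest IP/T, and -0.38 relative to all kept probes, an alternative chosen after seeing the data. The median log2 miR-155/EV in total RNA was 0.76 without normalization, where the median of all kept probes was 0.44, and 0.20 and 0.38 in the single orientations. The median ratio of IP/T between the vectors was 0.15 and -0.10 in the single orientations, so that its sign is not determined. Class II probes with an IP/T of at most 0.5 in EV numbered 1 under normexp with quantile, 0 under normexp with loess and Aquantile, 1 with 1 probe per gene, 1 relative to all kept probes, from 0 to 6 in the single orientations and 7 at a threshold of 1.5-fold. In miR-155 they numbered 0 under normexp with either normalization, from 1 to 2 in the single orientations and 6 at 1.5-fold. Probes with an IP/T of at least 2 in EV numbered from 0 to 1 in the single orientations and 1 at 1.5-fold, which is CIITA probe 1, and 0 in miR-155 in the single orientations. The share of all kept probes is not given for these alternative calls at 2-fold or 1.5-fold. These counts therefore do not set class II apart from other probes. Probes below 1 in both orientations in EV numbered 7 of 13 under normexp with quantile, 6 of 12 under normexp with loess and Aquantile and 8 of 9 with 1 probe per gene, by either choice. The shares of all kept probes were 35.0%, 32.0% and 44.7%, in the same order. In miR-155 they numbered 7 of 9 with 1 probe per gene, by either choice, against 50.6% of all kept probes. The shares beside 1 probe per gene are over all kept probes, not reduced to 1 per gene. Probes above 1 in both orientations in total RNA numbered 7 of 12 under normexp with loess and Aquantile, against 26.5% of all probes kept there. The cause of these differences was not tested, except that 1 probe per gene and normexp keep fewer or other probes. Of 820 values of single probes under the alternatives, 21 changed sign, 1 of 205 for IP/T in EV, 1 of 205 for IP/T in miR-155, 8 of 205 for miR-155/EV in total RNA and 11 of 205 for the ratio of IP/T, and none of the 2-fold calls reversed. The alternative of naming probes by the gene name column of the arrays was not run, because the files used here hold accessions in place of it. No paired analysis was possible because each condition is 1 RNA sample and no result comes from a test. The number of arrays and the signal over background limit what the dim HLA-DQA1 and HLA-DOA probes can show.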
